A study of Homo sapiens with 6 samples.

Results

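Targets of NRF2 that supply and recycle glutathione and thioredoxin, or that are induced beside them, were followed in HSC-3, an established line of human squamous carcinoma cells of the tongue. The 10 genes were SLC7A11, GCLC, GCLM, GSR, TXN, TXNRD1, SRXN1, NQO1, HMOX1 and OSGIN1, of 19775 genes with a probe set of their own on the array. They were chosen by name with earlier results of these data known, as were the gene lists below. Counts set beside the share of all genes are therefore descriptive and no independent support. Every probe set annotated to the 10 genes was taken, 21 of 54613. All 10 genes, on 20 of the 21 probe sets, passed the filter on low signals.

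The study asked what trypsin-2, a secreted serine protease encoded by PRSS2, does to gene expression in these cells. RNA came from cells made to overexpress trypsin-2 (TAT-2 in the sample titles) and from cells carrying a control vector, which the submitters describe as making no trypsin-2. Both were cultured for 48 h in the same medium with serum and hydrocortisone, and each group had 3 Affymetrix arrays, numbered 1 to 3 in the titles. The labels do not say whether a line is 1 clone, or whether the replicates were separate cultures. The p-values therefore cover the spread among these arrays alone, and that spread may be technical.

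NRF2, encoded by NFE2L2, is a transcription factor that is held in the cytoplasm and marked for degradation by KEAP1. Oxidants and electrophiles modify KEAP1, NRF2 then accumulates, pairs with a small MAF protein and binds antioxidant response elements near its target genes. Its targets include the cystine importer and the enzymes that make glutathione, the reductases that keep glutathione and thioredoxin reduced, and enzymes that detoxify quinones and haem. The pathway is often active in squamous carcinomas.

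Antioxidant response elements have a short core, written here as TGACNNNGC or TGAGNNNGC. Promoter windows from 250 bases before to 50 bases after the start site were taken from RefSeq (GRCh38.p14) and searched on both strands. Of all 35116 such windows, 13.3% held the first form, 18.3% the second and 29.1% at least one. Windows were searched for 7 of the 10 genes, 8 windows in all because TXNRD1 had 2, and 5 of the 8 held a match. By gene, 4 held a match: GCLM, TXNRD1, NQO1 and OSGIN1. The other 3, GCLC, TXN and SRXN1, held none in this window. Windows of SLC7A11, HMOX1 and GSR were not analysed here. A matching window of each of the 4 genes is shown, because it sets the core's letters beside a gene whose signals are given below, with the matches in capitals and a match on the reverse strand printed as its complement. GCLM lies on chr1:93909381-93909680, minus strand, with matches TGACTAAGC and TGAGGGAGC. The downstream of the TXNRD1 windows lies on chr12:104286782-104287081, plus strand, with matches TGACAAAGC and TGAGCAGGC. The upstream TXNRD1 window, chr12:104215529-104215828, held TGACTTCGC and TGACGGAGC and is not printed. NQO1 lies on chr16:69726511-69726810, minus strand, with the match TGAGGCTGC. OSGIN1 lies on chr16:83952990-83953289, plus strand, with the match TGAGTCAGC, which overlaps an AP-1 site (TGACTCA, in 4.95% of windows).
GCLM: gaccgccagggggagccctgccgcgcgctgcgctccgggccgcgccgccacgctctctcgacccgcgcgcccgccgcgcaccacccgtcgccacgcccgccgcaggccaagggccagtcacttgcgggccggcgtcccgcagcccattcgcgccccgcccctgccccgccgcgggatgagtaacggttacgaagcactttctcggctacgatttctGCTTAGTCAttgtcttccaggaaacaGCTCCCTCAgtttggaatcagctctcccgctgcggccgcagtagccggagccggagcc
TXNRD1: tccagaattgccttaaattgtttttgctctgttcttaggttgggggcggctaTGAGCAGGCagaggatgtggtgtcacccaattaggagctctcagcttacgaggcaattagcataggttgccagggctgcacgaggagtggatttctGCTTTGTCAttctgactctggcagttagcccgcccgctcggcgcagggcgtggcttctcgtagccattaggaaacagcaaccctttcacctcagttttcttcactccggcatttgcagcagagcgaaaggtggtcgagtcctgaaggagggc
NQO1: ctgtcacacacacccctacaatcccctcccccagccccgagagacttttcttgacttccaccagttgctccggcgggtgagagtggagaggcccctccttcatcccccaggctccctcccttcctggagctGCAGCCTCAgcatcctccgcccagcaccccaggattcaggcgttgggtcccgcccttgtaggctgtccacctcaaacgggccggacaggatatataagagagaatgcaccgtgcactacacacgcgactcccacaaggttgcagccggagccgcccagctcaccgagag
OSGIN1: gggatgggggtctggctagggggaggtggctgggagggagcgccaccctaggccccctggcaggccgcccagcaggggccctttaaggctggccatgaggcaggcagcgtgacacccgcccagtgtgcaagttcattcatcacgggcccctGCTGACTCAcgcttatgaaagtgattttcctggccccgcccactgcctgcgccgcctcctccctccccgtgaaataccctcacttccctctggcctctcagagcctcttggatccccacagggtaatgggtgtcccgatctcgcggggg
These matches describe letters only. Whether NRF2 was bound at any of them was not measured.

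Array quality and labels were read first. Both replicate 1 arrays had a lower ACTB 3' to 5' ratio (log2), 0.21 and 0.25, than the other 4 arrays, 0.46 to 0.59, and array medians ran from 14.8 to 17.6. The ACTB ratio was also lower on the overexpressing than on the control array of the same number in all 3 numbers. PRSS2 went against the labels in replicates 2 and 3. Its brighter tested probe set gave 20.4, 13.8 and 14.6 under the overexpressing label and 19.6, 80.8 and 83.2 under the control label (adjusted p = 0.467 in limma, and 0.0506 with the block). In replicate 1 the log2 difference of that probe set was 0.03. The dimmer one gave 19.9, 17.9 and 19.5 under the overexpressing label and 22.6, 38.0 and 54.5 under the control label, with no overlap (adjusted p = 0.560, and 0.127 with the block). No source used here says whether these probe sets read the introduced sequence, so every direction below rests on the labels. Squamous epithelial markers with a probe set of their own here, 6 of 10 listed, summed to signals of 21547 to 23395 on overexpressing and 19414 to 26050.0 on control arrays. Of these 6, 3 had a log2 fold change below 0. CDH1, E-cadherin (log2 -0.44), and EPCAM, an epithelial adhesion protein (-0.45), fell with the block described below. SFN (-0.02), DSG3 (0.01) and the keratins KRT14 (0.22) and KRT5 (0.31) were not called with it. The part of these markers in the results was not tested. The sums were 241 to 253 and 203 to 225 for 8 of 8 fibroblast markers, 67.6 to 122 and 70.9 to 100.2 for 6 of 8 leukocyte markers, and 49.0 to 65.2 and 44.7 to 55.6 for 6 of 6 endothelial markers. Of these, 4 fibroblast, 3 leukocyte and 1 endothelial marker passed the filter on low signals, and none was called with the block. The fibroblast sums did not overlap. FAP, the brightest fibroblast marker, did, with 92.0, 101 and 93.8 on overexpressing and 50.6, 69.0 and 103 on control arrays. The part of these sums in the results was not tested.

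In a limma fit with arrays matched by number, 7 of the 10 genes were called lower on the arrays labelled overexpressing. The differences ran from 1.24-fold for GCLM to 2.31-fold for the cystine transporter SLC7A11, and none of the 10 was called higher. Since RNA of whole cultures was measured, fewer cells making a transcript and less of it per cell cannot be told apart. TXN and OSGIN1 were also below the control mean without passing the test, and HMOX1 alone had a fold change above 0. Fold changes are differences of log2(signal + 16), where the added 16 damps noise in dim probe sets. They were tested with limma across 27307 probe sets, adjusted by Benjamini-Hochberg and called at an adjusted p under 0.05. Each SE below, unless stated, is of the fit with group as its single term. The words "fell" and "rose" are used only for genes called by limma with replicate number added as a blocking term. That fit called 3.46% of 12151 tested genes lower, against 7 of these 10, and 3.5% higher, against 0 of 10. At an unadjusted p under 0.05 it placed 8 of the 10 lower, against 10.9% of genes. Without the block limma called 0 of the 10, with 6 of them lower at an unadjusted p under 0.05, where 0.0411% of all genes were called lower, 0.0165% higher, and 4.63% were lower at that unadjusted p.

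The count with the block depends on how limma pools the variance. With the block but without the intensity trend of the variance limma called 0 of the 10 lower, as of all genes (0%), with 8 of the 10 lower at an unadjusted p under 0.05, against 8.39% of genes. Without replicate 1 of both groups 4 of the 10 fell with the block, SLC7A11, GCLC, SRXN1 and NQO1, against 1.83% of genes.

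The groups did not overlap in 7 of the 10 genes, each lower on every overexpressing array, against 7.83% of tested genes (and 0 of the 10 higher on every one, against 7.87%). Lower signals within all 3 replicate numbers were found for 9 of the 10, against 21.1% of tested genes. The median log2 fold change of the 10 was -0.41, with -0.49, -0.36 and -0.39 in replicates 1, 2 and 3, and that of all tested genes was 0.00 (-0.0025).

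**Figure D1:**
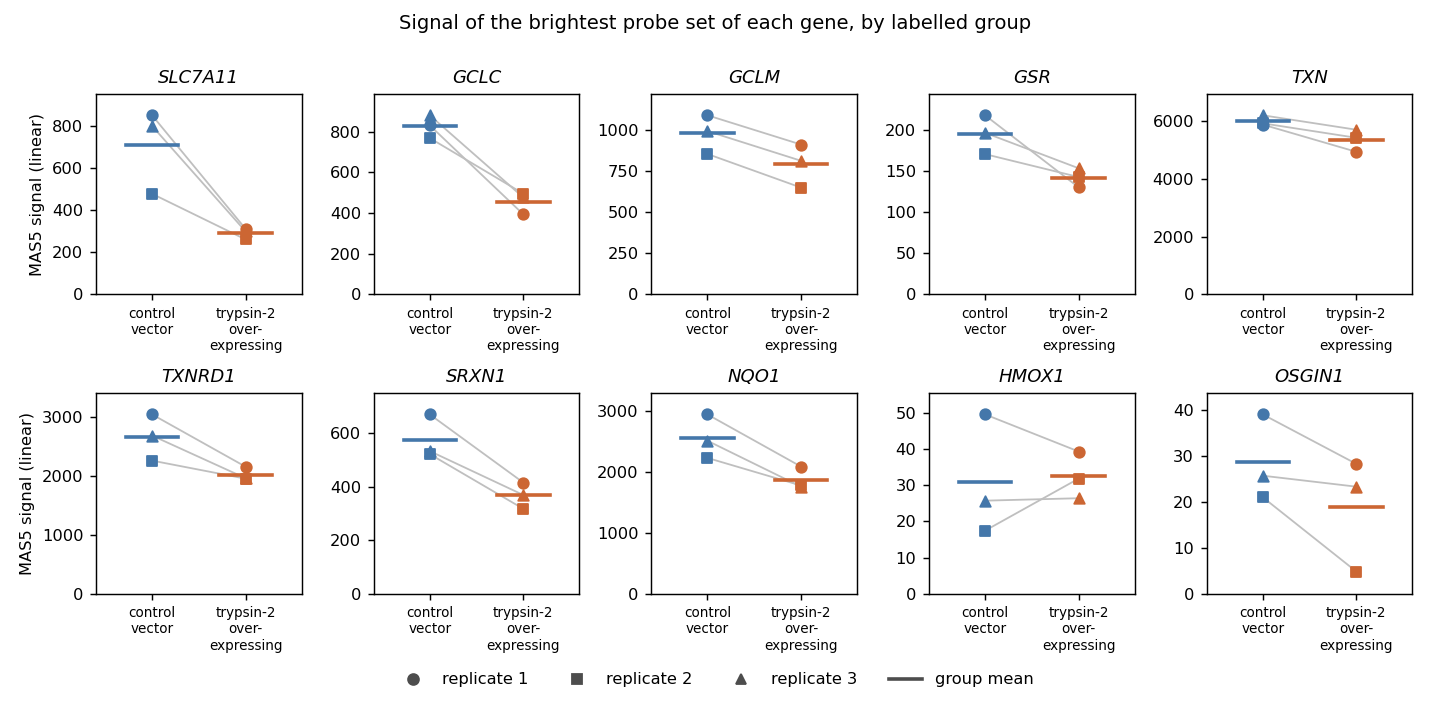
MAS5 signal (linear axis from 0) of the brightest probe set of each of the 10 genes on the 3 control vector and 3 trypsin-2 overexpressing arrays, with a symbol for each replicate number, grey lines between arrays of the same number and bars at the group means. In 7 genes every overexpressing array lies below every control array, GCLM and OSGIN1 overlap, and HMOX1, also overlapping, is lower in replicate 1 but not in replicates 2 and 3.

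Among the 10, SLC7A11 and GCLC had the lowest log2 fold changes, while GCLM, the partner of GCLC, had the smallest fall of the 7 called. SLC7A11 (xCT) exchanges glutamate for cystine, the source of the cysteine in glutathione. On its brightest probe set SLC7A11 gave 850.5, 478 and 799.9 on control replicates 1, 2 and 3 and 311, 261 and 299 on overexpressing replicates 1, 2 and 3. The overexpressing arrays lay close together while control replicate 2 was well under the other 2 controls, and the groups did not overlap. The means were 709 ± 202 and 290.1 ± 26.0 (SD, n = 3 each). SLC7A11 fell 2.31-fold, a log2 fold change of -1.21 ± 0.21 (SE) in limma without the block (adjusted p = 0.104, and 0.00016 with the block).

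Both further probe sets of SLC7A11 fell too. The next brightest probe set of SLC7A11 gave 649.5, 413 and 639.7 on control and 201, 239 and 229.7 on overexpressing arrays, a log2 fold change of -1.26 ± 0.18 (SE). The dimmest gave 94.2, 99.7 and 104 on control and 54.4, 60.0 and 49.9 on overexpressing arrays, a log2 fold change of -0.71 ± 0.13 (SE). On this dimmest probe set control replicate 2 of SLC7A11 was not low. In replicate 2 the difference of the brightest probe set was -0.83, against -1.41 and -1.37 in replicates 1 and 3.

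GCLC is the catalytic subunit of glutamate-cysteine ligase, which carries out the rate-limiting step of glutathione synthesis. On its brightest probe set GCLC gave 832, 769 and 881 on control and 394, 496 and 477 on overexpressing arrays. Every control array was well above every overexpressing one. The means were 827.5 ± 56.2 and 456 ± 54.3 (SD, n = 3 each), and GCLC fell 1.79-fold (log2 -0.84 ± 0.12, SE, adjusted p = 0.0596 in limma without the block and 0.00033 with it). Its 2 dimmer probe sets fell by 0.82 and 0.67 on the log2 scale, also with no overlap.

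GCLM, the modifier subunit that raises the efficiency of the same ligase, changed less. On its brightest probe set GCLM gave 1091, 856 and 995 on control and 913, 651 and 814 on overexpressing arrays. Both replicate 2 arrays were lowest and both replicate 1 arrays highest, so that the groups overlapped although each overexpressing array was below its own control. GCLM fell 1.24-fold with the block (log2 -0.31 ± 0.14, SE, adjusted p = 0.670 in limma without the block, and 0.0198 with it). It was not called with the block and no filter, without replicate 1 or replicate 2 of both groups, or with replicate 1 as a batch factor in place of the block. Without overexpressing replicate 2 its log2 fold change was -0.18. The 2 dimmer probe sets of GCLM had log2 fold changes of -0.23 and -0.29 and were called by neither fit. The 95% confidence intervals of GCLC (-1.11 to -0.58) and GCLM (-0.64 to 0.02) without the block met within a narrow range. With the block they were -1.03 to -0.66 and -0.45 to -0.17 and did not meet. The difference between the 2 subunits was not tested.

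Enzymes that keep glutathione and thioredoxin reduced changed less than SLC7A11 and GCLC in fold. GSR, glutathione reductase, turns oxidised glutathione back to its reduced form with NADPH. On its brighter probe set GSR gave 218, 171 and 197 on control and 130.2, 143 and 153 on overexpressing arrays. The groups did not overlap, with control replicate 2 the nearest to the overexpressing arrays. GSR fell 1.33-fold (log2 -0.41 ± 0.13, SE), just past the threshold with the block (adjusted p = 0.0475 in limma, and 0.461 without it), and was called under no other setting tried. Its other probe set had a log2 fold change of -0.43 with an adjusted p of 0.0586 with the block in limma.

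TXNRD1, the cytosolic thioredoxin reductase, is a selenoprotein that passes electrons from NADPH to thioredoxin. On its tested probe set TXNRD1 gave 3043, 2258 and 2683 on control and 2154, 1951 and 1959 on overexpressing arrays. The overexpressing arrays were alike, and control replicate 2 was only a little above them. TXNRD1 fell 1.31-fold (log2 -0.39 ± 0.11, SE, adjusted p = 0.395 in limma without the block and 0.0111 with it). It was not called with the block and no filter, nor without replicate 1 of both groups. The other probe set of TXNRD1, with signals between 0.509 and 6.71, was the 1 probe set of the 21 below the filter and was not tested.

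SRXN1, sulfiredoxin, restores peroxiredoxins that have been over-oxidised. SRXN1 gave 671, 522 and 533 on control and 415, 317 and 369 on overexpressing arrays on its single probe set. The groups did not overlap. SRXN1 fell 1.54-fold (log2 -0.62 ± 0.14, SE, adjusted p = 0.206 in limma without the block and 0.00081 with it), with differences of -0.67, -0.69 and -0.51 in replicates 1, 2 and 3.

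TXN, thioredoxin, is the small protein that TXNRD1 reduces and that in turn reduces protein disulfides. On its brighter probe set TXN gave 5874, 5917 and 6195 on control and 4931, 5417 and 5695 on overexpressing arrays. All overexpressing arrays were below all control arrays, but the gap was small. Its log2 fold change was -0.17 ± 0.07 (SE), with a 95% confidence interval of -0.34 to 0.00 (0.0049) without the block and -0.31 to -0.02 with it, and it was not called (adjusted p = 0.647 in limma, and 0.208 with the block). Without overexpressing replicate 1 it was -0.11. The dimmer TXN probe set gave 125 to 337 on overexpressing and 135 to 311 on control arrays, a log2 fold change of 0.01 ± 0.36 (SE). Both replicate 1 arrays were lowest on that probe set, with a mean log2 difference of -0.99 from replicates 2 and 3, while the brighter one differed by -0.11 there.

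NQO1, a reductase that turns quinones into hydroquinones with NADPH or NADH, is widely used as a readout of NRF2. On its brightest probe set NQO1 gave 2943, 2228 and 2510.4 on control and 2086, 1775 and 1757 on overexpressing arrays. The groups did not overlap on this probe set. NQO1 fell 1.36-fold (log2 -0.44 ± 0.12, SE, adjusted p = 0.326 in limma without the block and 0.0036 with it). Its other 2 probe sets fell by 0.41 and 0.42 on the log2 scale with overlapping groups, the brighter of them close to the threshold (adjusted p = 0.0499 in limma with the block).

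HMOX1, haem oxygenase 1, breaks haem down to biliverdin, iron and carbon monoxide, and its gene is held off by BACH1 as well as induced by NRF2. On its single probe set HMOX1 gave 49.7, 17.4 and 25.8 on control and 39.4, 31.9 and 26.4 on overexpressing arrays. The control arrays enclosed the overexpressing ones. The log2 fold change of HMOX1 was 0.10 ± 0.25 (SE), with a 95% confidence interval of -0.48 to 0.68 and differences of -0.25, 0.52 and 0.02 in replicates 1, 2 and 3 (adjusted p = 0.981 in limma, and 0.846 with the block).

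OSGIN1, an oxidative stress induced growth inhibitor, gave 38.9, 20.9 and 25.6 on control and 28.2, 4.79 and 23.2 on overexpressing arrays. Overexpressing replicate 2 stood far below the other 5 arrays and under the filter level of 15.2. Its log2 fold change was -0.41 ± 0.30 (SE), with a 95% confidence interval of -1.09 to 0.27, and it was not called (adjusted p = 0.862 in limma, and 0.305 with the block). Without overexpressing replicate 2 it was -0.08, without overexpressing replicate 1 -0.62 and without control replicate 1 -0.25. At pseudocounts of 1 and 64 it was -0.84 and -0.17. Both HMOX1 and OSGIN1 were dim, so that the added 16 takes a large share of their values.

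**Figure D2:**
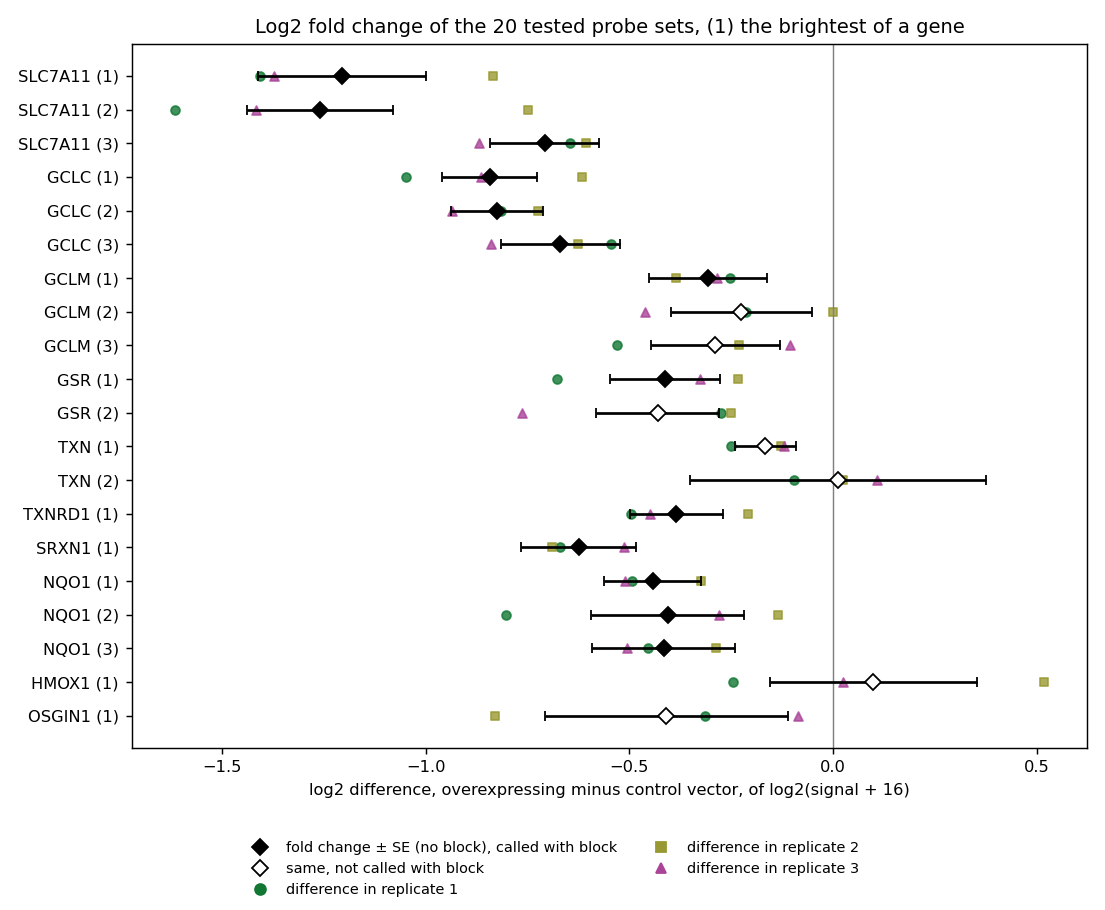
Log2 fold change of log2(signal + 16), overexpressing minus control, of the 20 tested probe sets, with diamonds for the limma estimate without the block, bars for its SE, filled diamonds for the 13 probe sets called with the block, and a symbol for the difference within each replicate number. The probe sets of SLC7A11 and GCLC lie farthest to the left, and the dimmer TXN probe set and HMOX1 lie above 0. Probe sets of a gene are numbered from the brightest.

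Of the 20 tested probe sets, 13 were called lower with the block, against 2.66% of all tested probe sets, 0 higher (2.55% of all), and 7 not called. The 7 were 2 probe sets each of GCLM and TXN and 1 each of GSR, HMOX1 and OSGIN1. Exact two-sided permutation tests of single probe sets over the 6 arrays cannot go below p = 0.1. Any probe set whose groups do not overlap reaches that value. The brightest probe sets of the 7 genes without overlap therefore had to reach it, and the test adds nothing to the overlap. These 7 include TXN, which was not called, and leave out GCLM, which fell with the block.

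Across the 6 arrays the genes followed one another to different degrees. Pearson's r of a gene with the mean of the other 9, each standardised, was 0.98 for TXNRD1, 0.97 for SLC7A11, 0.96 for NQO1 and 0.95 for SRXN1. It was 0.55 for TXN and 0.17 for HMOX1, the lowest. These values describe 6 arrays that share 2 groups and the shift of replicate 1. Outside the 10, the genes whose brightest tested probe set was most like their mean over the same 6 arrays were NABP1 (r = 0.99), SFTA1P, ORC2, FECH and TENT4B (r = 0.98 for the last). SFTA1P alone of these fell with the block (log2 -0.70 ± 0.15, SE, adjusted p = 0.00068 in limma, and 0.193 without it).

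Among the genes that control NRF2 the share called was near that of all genes. Of 16 tested regulators, from KEAP1 and CUL3 to the small MAF proteins and the BACH repressors, 1 fell and 0 rose with the block, against 3.46% and 3.5% of all genes. A fold change below 0 was found for 12 of the 16, against 50.5% of all genes, with a median of -0.09. With the block 5 of the 16 were at an unadjusted p under 0.05, against 2708 of 12151 genes. Limma without the block called 0, with 1 at an unadjusted p under 0.05. BACH2, a repressor related to BACH1, was the 1 that fell, from 40.6 ± 7.69 to 16.7 ± 2.54 (SD, n = 3 each), or -0.79 ± 0.17 on the log2 scale (SE, adjusted p = 0.190 in limma without the block and 0.0279 with it), close to the filter level. NFE2L2 and KEAP1 are given outside the rule for named genes, chosen after their values were seen. NFE2L2 gave 1264, 1185 and 1278 on overexpressing and 1275, 1175 and 1117 on control arrays, a log2 fold change of 0.06 ± 0.09 (SE) with a 95% confidence interval of -0.14 to 0.27. KEAP1 was at 0.17 ± 0.17 (SE), with an interval of -0.22 to 0.56. Neither was called by either fit, and protein and nuclear localisation were not measured.

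Of 27 other tested NRF2 targets, 8 fell and 0 rose with the block, against 3.46% and 3.5% of all genes. A fold change below 0 was found for 24 of them, against 50.5% of all genes, with a median of -0.19. The lowest were the aldo-keto reductases AKR1C2 (log2 -1.83 ± 0.25, SE), AKR1C1 (-1.42 ± 0.17) and AKR1C3 (-1.10 ± 0.26), which reduce steroids and carbonyls and whose related sequences may share probes. TRIM16, a ubiquitin ligase, followed at -0.71 ± 0.18 (SE). Limma without the block called 0 of the 27, with 7 at an unadjusted p under 0.05, against 1140 of 12151 genes.

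The rest of the glutathione and thioredoxin pathways had medians near that of all genes, and their difference from the 10 was not tested. Of 33 other glutathione genes 1 fell and 1 rose with the block, a share near that of all genes (3.46% and 3.5%), and their median log2 fold change was 0.00 (-0.0013). GSTP1, a glutathione transferase, fell (log2 -0.39 ± 0.18, SE, with overlapping groups), and GSTO1, an omega class transferase, rose (0.32 ± 0.07). Of 24 other thioredoxin genes 3 rose and 0 fell with the block, against 3.5% and 3.46% of all genes, with a median of 0.00 (-0.0010). TXNRD2, the mitochondrial thioredoxin reductase, rose from 122 ± 6.03 to 188 ± 24.8 (SD, n = 3 each; log2 0.55 ± 0.14, SE), with an adjusted p of 0.0123 in limma with the block and 0.256 without it. MSRB3, a methionine sulfoxide reductase, and PRDX3, the mitochondrial peroxiredoxin, rose by 0.52 ± 0.15 and 0.24 ± 0.08. With the block limma placed 13 of the 33 and 8 of the 24 at an unadjusted p under 0.05 in either direction, against 2708 of 12151 genes. Limma without the block called 0 genes of either list, with 3 and 4 at an unadjusted p under 0.05, against 1140 of 12151 genes.

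Of 18 haem and iron genes, TFRC, the transferrin receptor (-0.55 ± 0.27, log2 and SE), and CPOX, an enzyme of haem synthesis (-0.39 ± 0.14), fell with the block. BLVRA, biliverdin reductase, which acts after HMOX1, rose (0.32 ± 0.24 without the block, with an SE of 0.07 and adjusted p = 0.0252 in limma with it). Of 9 superoxide and peroxide enzymes outside both pathways, CYBA, an NADPH oxidase subunit (0.67 ± 0.23), and SOD2, the mitochondrial superoxide dismutase (0.43 ± 0.28), rose with the block and none fell. Of these 5 genes, the groups overlapped in all but CPOX. With the block 3.46% of all genes fell and 3.5% rose. Limma without the block called 0 in both lists, with 2 and 1 at an unadjusted p under 0.05, against 1140 of 12151 genes.

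SLC7A11 is also induced by ATF4, the transcription factor of amino acid shortage. Of 22 ATF4 genes, ASNS, asparagine synthetase (-0.72 ± 0.12, log2 and SE), TRIB3, a pseudokinase (-0.52 ± 0.11), and PSAT1, of serine synthesis (-0.39 ± 0.16, with overlapping groups), fell with the block and 0 rose, with a median of -0.05. The shares of all genes that fell and rose with the block were 3.46% and 3.5%. Limma without the block called 0 of the ATF4 genes, with 3 at an unadjusted p under 0.05, against 1140 of 12151 genes. The lists share some genes, such as CHAC1 and SLC3A2, so their counts are not independent.

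**Figure D3:**
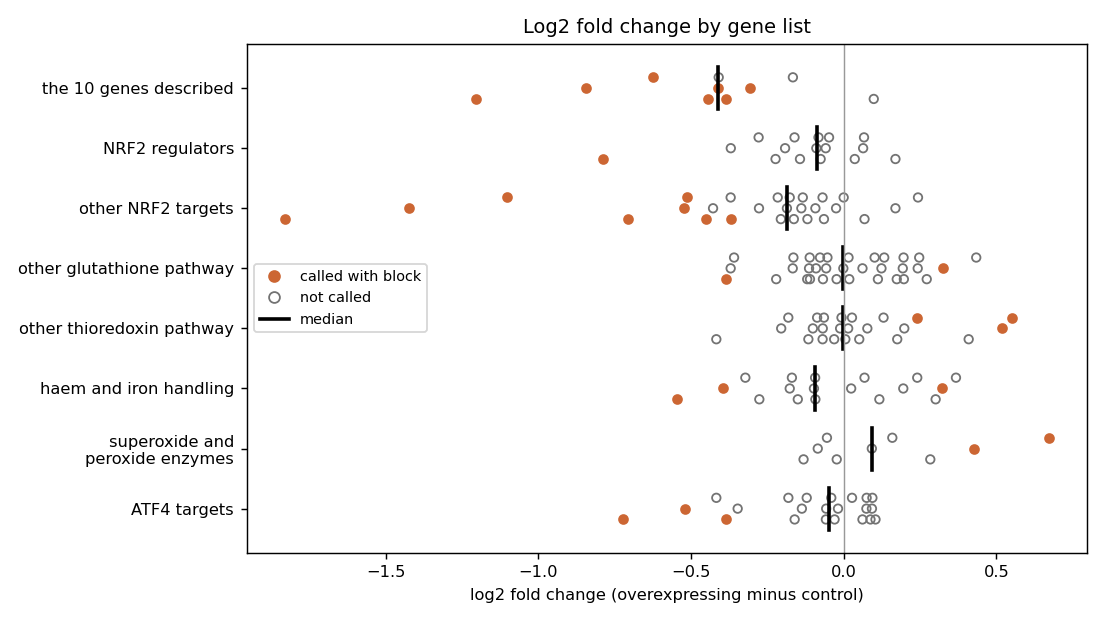
Log2 fold change (overexpressing minus control, of log2(signal + 16)) of each tested gene in the 10 described and in the 7 other lists, with filled points for genes called with the block and a bar at each list's median. The median of the 10 is -0.41, that of other NRF2 targets -0.19, and those of the other glutathione and thioredoxin genes 0.00.

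Some of the 10 lie among genes shifted the same way. Each was set beside its 5 nearest tested genes on each side in the RefSeq gene order, at any distance. The 10 neighbours of SRXN1 on chromosome 20 were all below 0, with a median of -0.33, and TRIB3, RBCK1, CSNK2A1 and PSMF1 fell with the block (-0.52, -0.29, -0.37 and -0.40), against -0.62 for SRXN1. Of the 10 neighbours of GCLC on chromosome 6, 9 were below 0, with a median of -0.32, and CILK1, ELOVL5, LRRC1 and DST fell with the block (-0.53, -0.30, -0.39 and -0.35), against -0.84 for GCLC. TXN was at -0.17 and the median of its neighbours on chromosome 9 at -0.18, where EPB41L4B (-0.62) and PTGR1, itself an NRF2 target (-0.37), fell with the block. Of all tested genes 50.5% were below 0 and 3.46% fell with the block. Whether these stretches have a part in the falls of SRXN1 and GCLC was not tested.

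The other falls stood among neighbours whose median was near 0. SLC7A11 was at -1.21 while its neighbours on chromosome 4 had a median of -0.06, with 8 of 10 below 0, and none of them was called with the block. Its antisense gene SLC7A11-AS1 was among them, at -0.26 (adjusted p = 0.591 in limma with the block). The medians were -0.03 around GCLM, 0.03 around GSR, 0.03 around TXNRD1 and -0.10 around NQO1, with 6, 4, 5 and 7 of 10 below 0. NRG1 and RBPMS near GSR, CNN3 near GCLM and AARS1 near NQO1 fell with the block (-1.16, -0.60, -0.32 and -0.33), and GLT8D2 near TXNRD1 rose (0.39). NRG1 was also called without the block (adjusted p = 0.0248 in limma). The medians around HMOX1 and OSGIN1 were -0.01 and -0.05, and none of their neighbours was called.

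**Figure D4:**
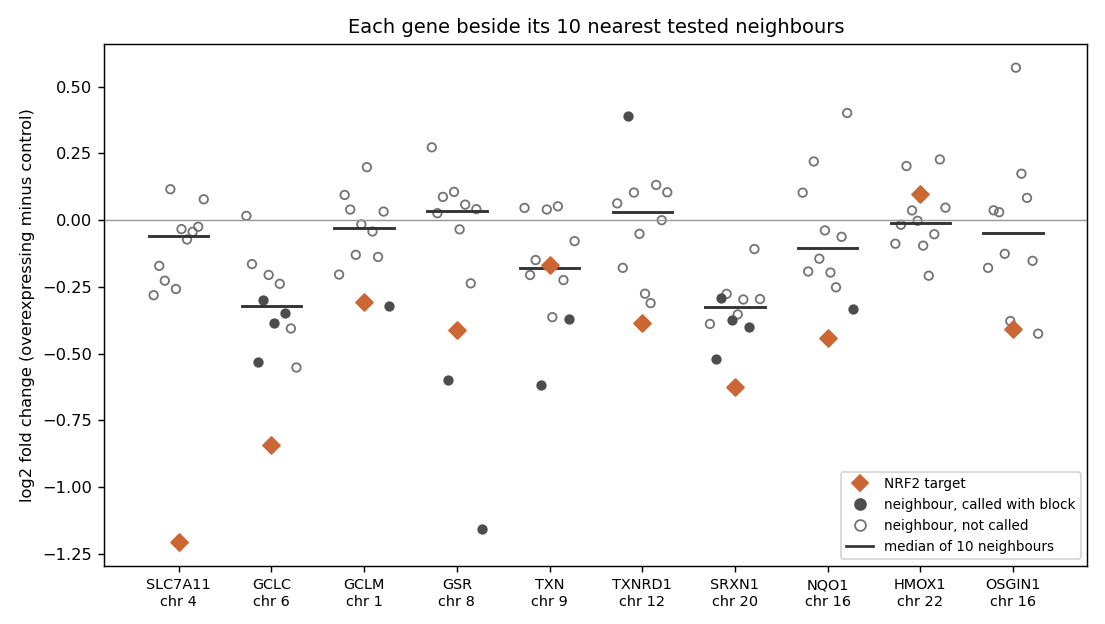
Log2 fold change (overexpressing minus control, of log2(signal + 16)) of each of the 10 genes (diamonds) and of its 5 nearest tested genes on each side (points, filled where called with the block), with bars at the median of the 10 neighbours. The neighbours of GCLC and SRXN1 sit lowest, with medians of -0.32 and -0.33, and those of SLC7A11 have a median of -0.06.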

How the data were processed

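The authors deposited a linear intensity for each probe set on each array. The submitters' processing notes name MAS5, without a version. Their scaling was kept, since the mean of each array without its lowest and highest 2 in 100 signals was 99.98. Of 54675 probe sets 62 controls were left out. The platform annotation gave 1801 probe sets several symbols and 11777 none, and these name no gene here. Symbols were updated by gene identifier (GRCh38.p14).

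Signals were tested as log2(signal + 16) where the mean over 6 arrays reached the median of all probe sets (4.96, a signal of 15.2), which left 27307 probe sets and 12151 genes. Group was the single term of a linear model in limma 3.58.1 (R 4.3.3), moderated by eBayes with trend = TRUE and tested on simulated data. The brightest tested probe set stood for a gene. Named were all probe sets of the 10 genes, up to 4 called genes of each list, called neighbours and the 5 genes of most similar profile. The members and lists were chosen with earlier results of these data known. Precision is limited by the 3 arrays in each group.

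Arrays of the same replicate number deviated together from their group means, with r = 0.64, 0.39 and 0.25 for numbers 1, 2 and 3. On that ground the number was used as a block. Overexpressing 2 with control 3 gave 0.32 and overexpressing 3 with control 2 gave 0.20, so numbers 2 and 3 are not clearly parted, and no label explains the numbering. Deviations from a mean of 3 arrays cancel out, so a shift shared by the replicate 1 arrays alone tends to make every r among numbers 2 and 3 positive. The r of numbers 2 and 3 therefore cannot show that those arrays are paired. Alternatives were other pseudocounts, filters, scalings, variance models and probe set summaries, and arrays left out.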

Additional observations from a re-analysis of the deposited data

How the results depend on the processing

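Of the 10 genes, all but HMOX1 kept a fold change below 0 under every alternative that tested them. HMOX1 ranged from -0.12 (without control replicate 2) to 0.37 (without control replicate 1) with single arrays left out, with 0.00 (-0.00078) without overexpressing replicate 1, and was at -0.11 with the replicate block but without replicate 2 of both groups. The count of the 10 called lower by limma, 0 without the block, was also 0 at pseudocounts of 1 and 64, with no filter and filters at percentiles 30 and 70 (which left 8 genes), under quantile normalization, with centred array medians, without the intensity trend and with any single array left out (0 to 0, with 5 to 7 at an unadjusted p under 0.05). It was 2 when probe sets of a gene were averaged (0.14% of all genes) and 5 with a batch factor of replicate 1 (3.05%). With the replicate block it was 7 (3.46% of all genes), and with the block it was 7 under quantile normalization (3.85%), 6 at a pseudocount of 1 (3.18%), 4 with no filter (0.647%), 4, 5 and 6 without replicate 1, 2 or 3 of both groups (1.83%, 1.53% and 3.52%), and 0 without the intensity trend (0%). HMOX1 was at 0.18 and 0.04 at pseudocounts of 1 and 64, and TXN at -0.08 when its probe sets were averaged. TXN was called with the block under quantile normalization (adjusted p = 0.0361), and GSR lost its call in every blocked alternative but the main one. Called higher were 0 of the 10 under all settings. With the replicate block, counts that were 0 without it became 1 lower for NRF2 regulators, 8 lower for other NRF2 targets, 1 lower and 1 higher for other glutathione genes, 3 higher for other thioredoxin genes, 2 lower and 1 higher for haem and iron genes, 2 higher for superoxide and peroxide enzymes, and 3 lower for ATF4 genes. The cause of these changes was not tested. Signals near the filter level limit what can be said of HMOX1 and OSGIN1.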
